A study of Homo sapiens with 12 samples.

Results

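Collagens and the enzymes and helpers that modify them were followed through a knockdown of PHF19 in a pair of triple-negative breast cancer lines. The set held every gene named COL, a number, A and a number in the tables, without antisense names, which gave 44 collagen chains. To these were added the lysyl oxidase LOX and LOXL1 to LOXL4, the prolyl 4-hydroxylase subunits P4HA1 to P4HA3, the lysyl hydroxylases PLOD1 to PLOD3, the chaperone gene SERPINH1, the matrilin genes MATN2 and MATN3, and C1QTNF6. Together these were 59 of 29972 gene rows. MATN2 and C1QTNF6 were included with their rise in both lines already known, so their change is a description here. The other members were also chosen with earlier results of these data known, so shares of members called are descriptions as well.

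Collagens are secreted or membrane proteins built from a trio of chains wound into a triple helix. The chains are made in the endoplasmic reticulum, where prolyl and lysyl hydroxylases modify them and the chaperone HSP47 binds the folded helix; outside the cell, lysyl oxidases cross-link the fibrils. Carcinoma cells contribute to the matrix around a tumour, and cross-linked collagen is known to stiffen it. PHF19 is a Polycomb-like accessory subunit of PRC2, the complex that places a repressive methyl mark on histone tails.

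The series asked how PHF19 bears on PRC2 and on motility. MDA-MB-436 and BoM-1833, a derivative of MDA-MB-231 cells that was selected for growth in bone, were reverse transfected with 5 nM siRNA and harvested after 72 h. The control groups (siNT) received a non-targeting pool and the treated groups (siPHF19) an equal mixture of 2 PHF19 siRNAs from another supplier. There were 4 groups of 3 libraries, 12 in all, and no untransfected cells were analysed here, so each comparison is of one siRNA preparation with another. The labels do not say whether libraries came from separate cultures, and p-values measure only the spread between these libraries.

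PHF19 itself was cut by siPHF19, leaving 9.75% of its control level in MDA-MB-436, while BoM-1833 kept 10.9%. Reads assigned to genes numbered 15.2 to 24.0 M per library in MDA-MB-436 and 13.7 to 21.3 M in BoM-1833. Of the receptors that define the triple-negative class, ESR1 and PGR reached at most 3.97 normalized counts in a library, and ERBB2 ranged from 932 to 1179. VIM, the mesenchymal intermediate filament, was abundant in both lines, not called in MDA-MB-436 and called lower in BoM-1833, by -0.21 (adjusted p 0.00213, SE 0.05) by the authors' deposited table. Of 8 markers of blood, endothelial and liver cells, 6 (MDA-MB-436) and 5 (BoM-1833) of them stayed under 3 normalized counts in every library. Among the others, the lysosomal gene CD68 was called lower in MDA-MB-436, with a log2 fold change of -0.36 (adjusted p 0.00277, SE 0.10) by the authors' deposited table. The summed count of the 8 markers there was 730.1 to 834 in siNT and 578 to 645 in siPHF19, nearly all of it CD68. PECAM1 held 13.1 to 34.9 counts in MDA-MB-436 and was not called. In BoM-1833 CD68 held 2965 to 3337 counts, PECAM1 280 to 404 and PTPRC 14.9 to 21.2, and none was called. The part of CD68 and VIM in the collagen results was not tested. In both lines siNT replicate 1 stood apart from the other siNT libraries: the chi-square per degree of freedom over genes was 11.9 to 24.1 in pairs with it, 5.92 (MDA-MB-436) and 7.84 (BoM-1833) between the other siNT libraries, and 2.29 to 3.45 in siPHF19 pairs.

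Values below are normalized counts, that is, reads divided by the size factor of the library. A gene was called higher or lower at an adjusted p under 0.05 of the DESeq2 Wald test, as the authors' deposited table gives it, and fold changes are on the log2 scale, siPHF19 over siNT. At least 1 read was found for 54 of the 59 members in MDA-MB-436 and for 52 in BoM-1833. The filter on low counts in the authors' table left 44 and 34 members tested. Every library is RNA of a whole culture, in which fewer cells of a type and less RNA per cell cannot be told apart.

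In MDA-MB-436, 18 of the 44 tested members were called (40.9%), against 22.1% of all genes tested. Of these, 12 were higher, with a background of 10.5%, and 6 were lower, with a background of 11.5%. In BoM-1833, 14 of 34 were called (41.2%), against a background of 10.9%. There 8 were higher (background 5.21%) and 6 lower (background 5.72%). These counts hold MATN2 and C1QTNF6, whose rise was known. Without this pair, 16 of 42 were called in MDA-MB-436 (38.1%, 10 higher) and 12 of 32 in BoM-1833 (37.5%, 6 higher). The remaining members were chosen with earlier results of these data known too, so these shares are also descriptions. Without siNT replicate 1 of the line, DESeq2 on recovered reads called 15 members in each line, 14 and 13 of them among those above. The share of all genes called in these 2 fits was not taken. The changes did not share a direction: the median log2 fold change over tested members was 0.04 (MDA-MB-436) and 0.03 (BoM-1833), against -0.00 in both lines over all genes tested. The libraries of the siNT and siPHF19 groups did not overlap for 22 tested members in each line, 22 of 44 in MDA-MB-436 (background 42.2%) and 64.7% in BoM-1833 (background 31.0%). All called members were among them.

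**Figure D1:**
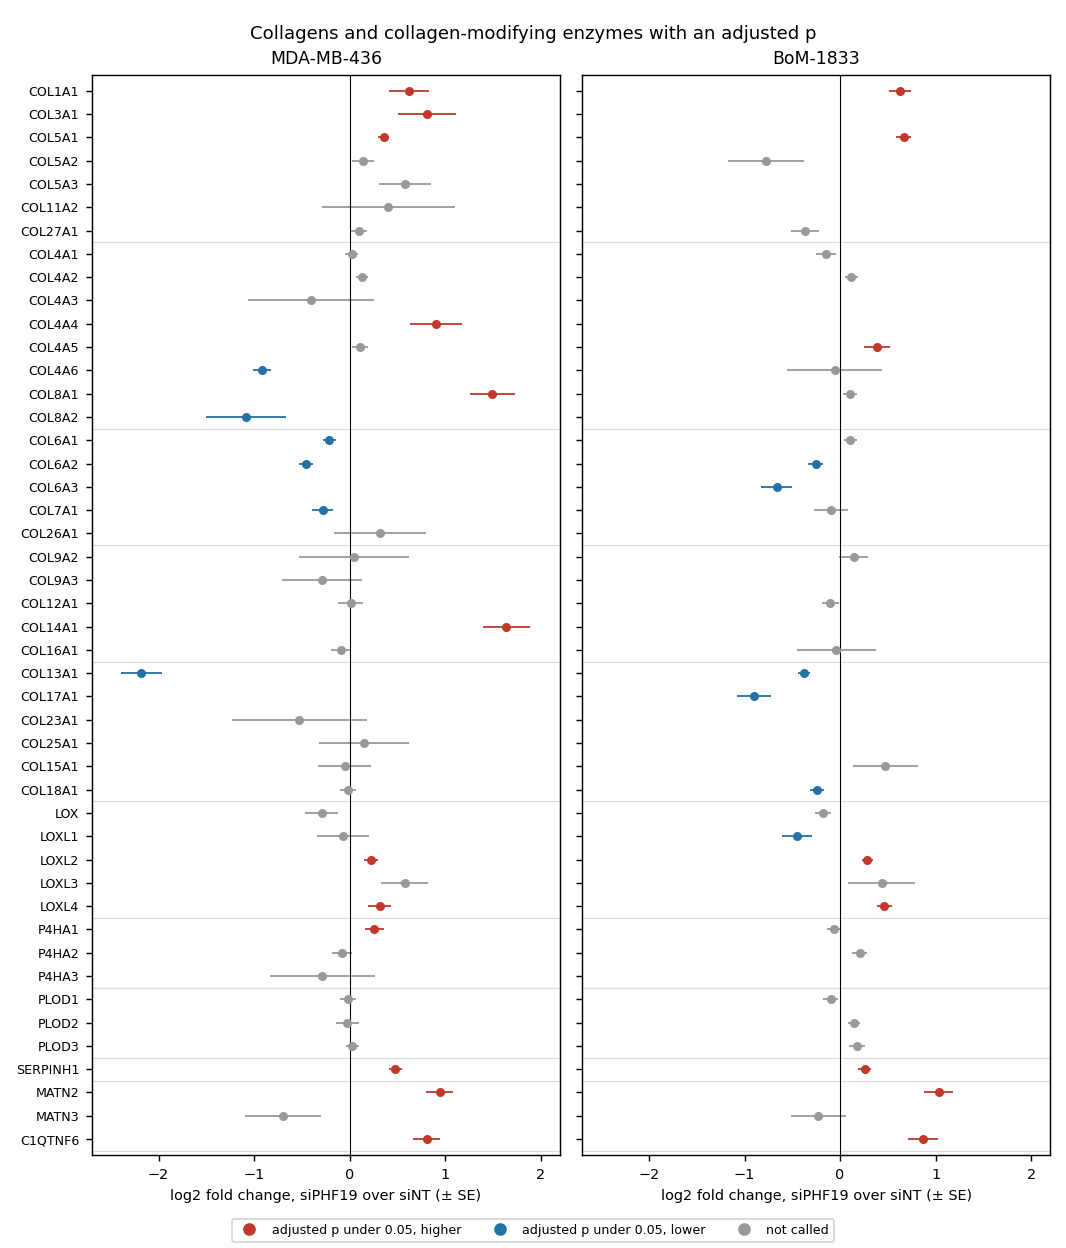
Log2 fold change (siPHF19 over siNT, x axis) of each member with an adjusted p, MDA-MB-436 on the left and BoM-1833 on the right; bars are standard errors, colours mark calls and grey lines separate the roles. Red and blue points occur in both lines, and COL13A1 at -2.18 and COL14A1 at 1.63 in MDA-MB-436 lie farthest from 0.

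Among 32 members with a test in each line, 9 passed in both (28.1%, background 5.97%), all in the same direction (background 5.67%). COL1A1, COL5A1, LOXL2, LOXL4, SERPINH1, MATN2 and C1QTNF6 were higher in both lines, 7 of 32 or 21.9% with a background of 2.55%. COL6A2 and COL13A1 were lower in both, 2 of 32 or 6.25% with a background of 3.12%. MATN2 and C1QTNF6 count here because they were chosen for this pattern. Without them, 7 of 30 were called in both lines (23.3%), 5 of 30 higher (16.7%), again a description of a set chosen with earlier results known.

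**Figure D2:**
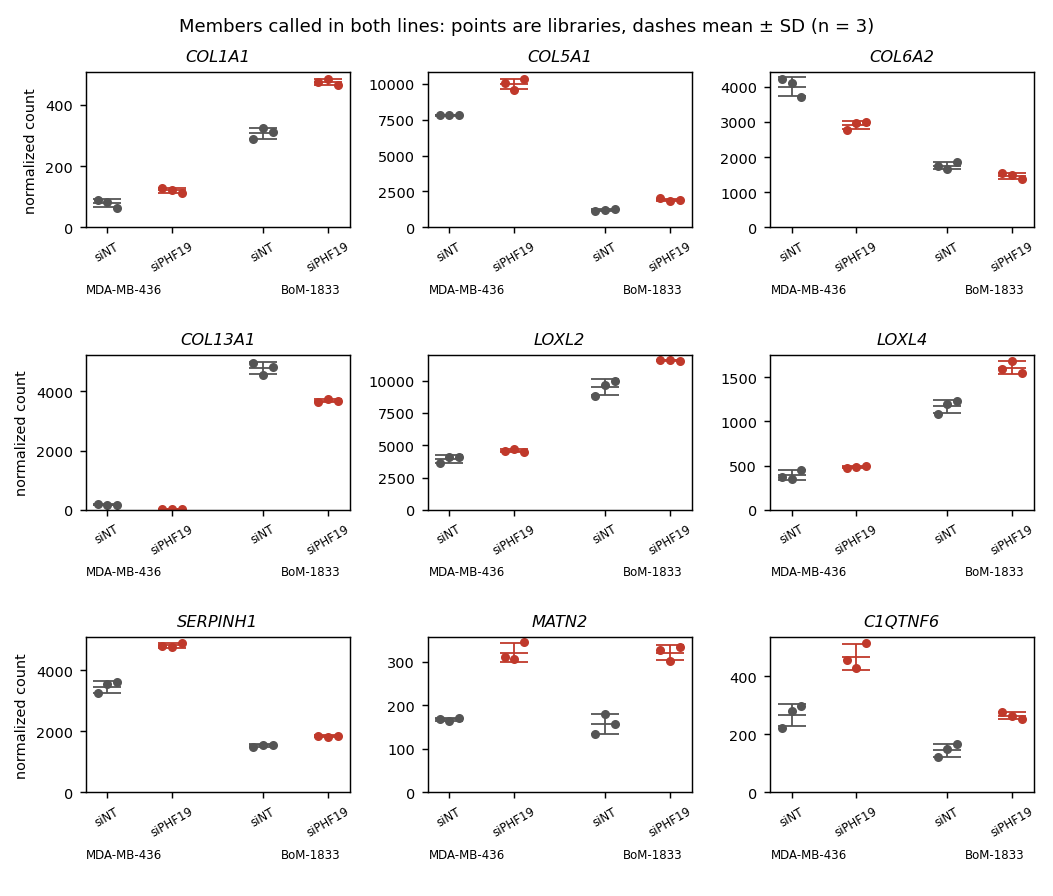
Normalized counts (y axis, from 0) of the 9 members called in both lines; points are libraries, dashes and bars the mean ± SD of 3 libraries. In each panel and line the siNT and siPHF19 points do not overlap, and lines were normalized separately, so heights are compared only within a line.

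Before the response, the control levels show which collagens these cells make. Levels between genes are given as reads per kilobase of transcript per M reads, with lengths from GENCODE. In MDA-MB-436 siNT libraries the leading chains were COL6A2 at 61.6 ± 3.4 (SD, n = 3), COL6A1 at 49.5 ± 0.726, COL5A1 at 49.1 ± 0.692 and COL4A2 at 36.8 ± 0.146. COL6A1 and COL5A1 did not differ beyond their spread. In BoM-1833 the order began with COL6A1 at 101 ± 7.73, COL13A1 at 89.5 ± 2.86, COL6A2 at 30.3 ± 1.43 and COL8A1 at 25.5 ± 2.09. Levels of the modifying enzymes ran from 0.314 ± 0.0493 for P4HA3 to 79.1 ± 4.86 for PLOD3 in MDA-MB-436, and from 0.0349 ± 0.0604 for P4HA3 to 159.8 ± 10.9 for LOXL2 in BoM-1833. PLOD3 led all members in MDA-MB-436, and LOXL2 those in BoM-1833. Chains of collagen I were scarce: COL1A2, the partner of COL1A1 in type I collagen, reached at most 2.86 normalized counts in any library.

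The summed level of all collagen chains was 307 ± 6.09 per kilobase per M in siNT and 302 ± 5.05 in siPHF19 in MDA-MB-436 (SD, n = 3). In BoM-1833 it was 323 ± 14.3 and 314 ± 7.56. The groups overlapped in both lines, while the make-up of the sum moved. Collagen V chains held 17.1% ± 0.0416 of the sum in siNT and 22.4% ± 0.550 in siPHF19 in MDA-MB-436, and 2.73% ± 0.129 and 4.40% ± 0.135 in BoM-1833. Collagen VI chains held 36.2% ± 1.81 and 29.4% ± 0.733 in MDA-MB-436, but 41.7% ± 1.22 and 43.8% ± 1.21 in BoM-1833, where the groups overlapped. COL13A1 alone held 27.7% ± 1.45 and 22.2% ± 0.731 in BoM-1833. These shares are descriptions without a test.

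**Figure D3:**
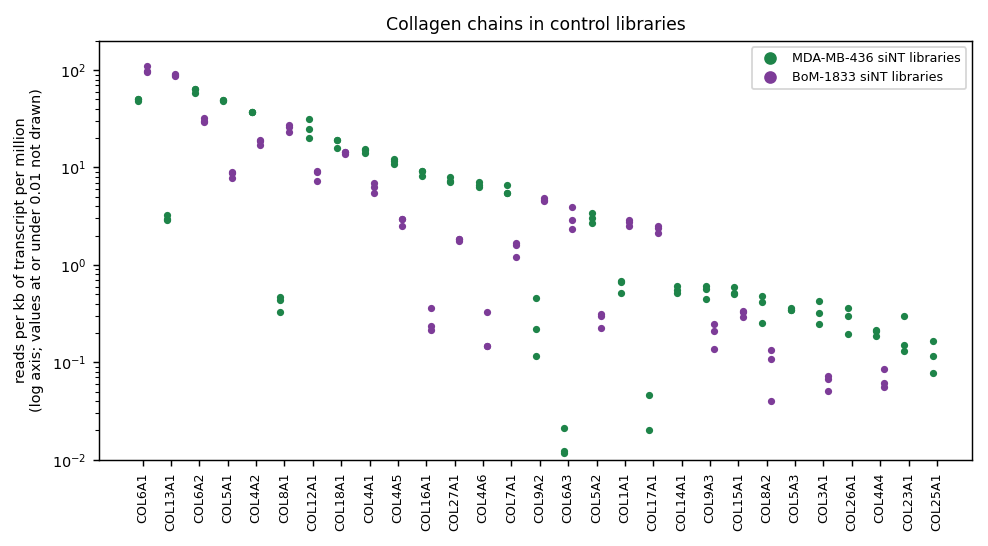
Reads per kilobase of transcript per M reads (y axis, log scale) of collagen chains in the 3 siNT libraries of each line, for chains whose mean reached 0.1 in a line. COL13A1 and COL8A1 stand higher in BoM-1833 than in MDA-MB-436, COL5A1 and COL4A6 the other way; the lines were normalized separately and were not tested against each other.

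The fibrillar collagens, which form the banded fibrils of connective tissue, were called higher or not at all. In MDA-MB-436, 3 of 7 tested were higher (42.9%, background 10.5%), and in BoM-1833 2 of 4 (background 5.21%). COL5A1 encodes the main chain of type V collagen, which starts fibrils and sets their diameter, and was the most abundant of them. In MDA-MB-436 its counts were 7832, 7791 and 7801 across siNT replicates 1 to 3, then 10018, 9581 and 10310.1 with siPHF19. BoM-1833 gave 1124, 1219 and 1286 in siNT and 2019, 1849 and 1879 in siPHF19. All siPHF19 libraries lay above all siNT libraries of their line. By the authors' deposited table COL5A1 rose by 0.35 (adjusted p 5.72e-08, SE 0.06) in the first line and by 0.66 (adjusted p 2.18e-15, SE 0.08) in the second. The gene lies at chr9:134641774-134844843, plus strand (GRCh38), and COL5A1-AS1 overlaps it on the opposite strand.

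COL1A1, the main chain of type I collagen, gave 88.4, 84.5 and 63.6 in siNT and 129, 123 and 113 in siPHF19 in MDA-MB-436. In BoM-1833 it gave 287, 323 and 312 in siNT and 475, 485 and 464 in siPHF19. Again no siPHF19 library fell into the siNT range. The authors' deposited table gives 0.61 (adjusted p 0.0189, SE 0.21) and 0.63 (adjusted p 1.6e-06, SE 0.11), a 1.53-fold and 1.55-fold rise. COL3A1, the chain of type III collagen, rose in MDA-MB-436 from 33.8, 44.2 and 25.7 in siNT to 63.2, 54.7 and 66.5 in siPHF19, by 0.80 (adjusted p 0.0382, SE 0.30) by the authors' deposited table. In BoM-1833 its mean was 5.88 ± 1.11 in siNT and 10.3 ± 2.82 in siPHF19 (SD, n = 3), and it was not tested. The MDA-MB-436 calls needed nearly all libraries: COL3A1 lost its call without any one of the 6 libraries (log2 fold change 0.64 to 1.04, highest adjusted p 0.195), and COL1A1 without any one except siNT replicate 1 (0.49 to 0.70, 0.155). COL3A1 was also not called without the filter on low counts.

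The other fibrillar chains were not called. COL5A2, the second chain of type V collagen, had 366, 444 and 396 in siNT and 429.5, 436 and 467 in siPHF19 in MDA-MB-436 and 35.7, 36.9 and 26.7 in siNT and 18.9, 17.7 and 21.6 in siPHF19 in BoM-1833. In BoM-1833 the groups did not overlap, but at these low counts the change of -0.78 (adjusted p 0.246, SE 0.40) by the authors' deposited table did not pass. COL27A1, a fibrillar chain known from cartilage, stood at 0.09 (adjusted p 0.453, SE 0.08) and -0.37 (adjusted p 0.0869, SE 0.15) by the authors' deposited table, and edgeR called it lower in BoM-1833. COL5A3 stood at 0.57 (adjusted p 0.12, SE 0.27) in MDA-MB-436 by the authors' deposited table, where edgeR called it higher. It had no read in BoM-1833. COL11A2 was tested in MDA-MB-436 only, at 3.67 to 18.6 counts. COL1A2, COL2A1, COL11A1 and COL24A1 held under 10 counts in every library.

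Type IV collagens form the sheet of the basement membrane, and their 6 chains are encoded in pairs that are transcribed away from each other. COL4A5 and COL4A6 start 347 bases apart on chromosome X in GENCODE. COL4A6 (chrX:108155607-108439497, minus strand) gave 809, 823 and 883 in siNT and 432, 470.5 and 426 in siPHF19 in MDA-MB-436. All siPHF19 libraries were below all siNT libraries, and 52.8% of the control mean remained. COL4A6 fell in MDA-MB-436, with a log2 fold change of -0.92 (adjusted p 9.83e-19, SE 0.10) by the authors' deposited table. COL4A5 (chrX:108439844-108697545, plus strand) gave 1357, 1413 and 1472 in siNT and 1422, 1604 and 1529 in siPHF19 in the same libraries, with overlapping groups and 0.10 (adjusted p 0.397, SE 0.08) by the authors' deposited table. In BoM-1833 COL4A5 rose from 272, 315 and 323 in siNT to 459.9, 377 and 351 in siPHF19, by 0.39 (adjusted p 0.0371, SE 0.13) by the authors' deposited table, while COL4A6 held only 13.2 to 37.2 counts there. The COL4A5 call was lost without any one library except siPHF19 replicate 3 (0.26 to 0.47, highest adjusted p 0.392), and without the filter on low counts.

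The stretches before the starts of both genes are shown because the genes of this pair share that region and differed in response. They run from the RefSeq start of each gene (GRCh38.p14) up to 250 bases upstream, without bases that GENCODE places inside a transcript, 5′ to 3′ on the strand of the gene. Capitals mark each CG. The COL4A5 stretch is chrX:108439588-108439837, plus strand, and the COL4A6 stretch chrX:108439498-108439708, minus strand, so that they overlap in opposite orientation.
COL4A5: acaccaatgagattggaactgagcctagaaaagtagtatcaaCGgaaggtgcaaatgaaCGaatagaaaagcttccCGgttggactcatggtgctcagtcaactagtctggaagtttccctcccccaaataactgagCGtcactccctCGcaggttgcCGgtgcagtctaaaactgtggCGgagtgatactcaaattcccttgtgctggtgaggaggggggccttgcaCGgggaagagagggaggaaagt
COL4A6: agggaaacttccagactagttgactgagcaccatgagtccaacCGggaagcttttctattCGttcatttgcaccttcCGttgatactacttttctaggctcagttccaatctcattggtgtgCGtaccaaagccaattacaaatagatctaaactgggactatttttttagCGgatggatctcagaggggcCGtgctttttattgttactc
The stretches hold 8 and 6 CG. COL4A6 may also start from other promoters, which gene-level counts do not separate.

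COL4A1 and COL4A2, the chains of the common basement membrane network, overlap at their starts on chromosome 13. COL4A2 held 4452 to 5178 counts in MDA-MB-436. Its BoM-1833 libraries held 1873 to 2221. Neither was called: COL4A2 stood at 0.13 (adjusted p 0.138, SE 0.06) and 0.12 (adjusted p 0.332, SE 0.07), and COL4A1 by 0.02 (adjusted p 0.888, SE 0.07) and -0.15 (adjusted p 0.48, SE 0.11), by the authors' deposited table. Reads of this overlap cannot be assigned with certainty, since the use of strand in counting is not stated. COL4A4, whose product joins COL4A3 and COL4A5 in the membranes of kidney and ear, rose in MDA-MB-436 from 36, 38.8 and 40.4 in siNT to 61.1, 74.5 and 79.2 in siPHF19, by 0.90 (adjusted p 0.00622, SE 0.27) by the authors' deposited table. That call was lost without siNT replicate 2, siPHF19 replicate 2 or siPHF19 replicate 3 (0.83 to 1.00, highest adjusted p 0.0926). Its neighbour COL4A3, which starts 112 bases away, held 5.80 to 12.2 counts and stood at -0.41 (adjusted p 0.721, SE 0.66) by the authors' deposited table.

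Type VIII collagen is a short-chain network collagen known from vessel walls and the cornea. COL8A1 (chr3:99638475-99799226, plus strand) gave 36, 49.6 and 46.5 in siNT and 129.7, 108 and 137 in siPHF19 in MDA-MB-436. The siPHF19 libraries lay well above the siNT libraries, and COL8A1 rose 2.81-fold, by 1.49 (adjusted p 1.41e-08, SE 0.24) by the authors' deposited table. BoM-1833 gave 2222, 2483 and 2590.1 in siNT and 2655, 2525 and 2657 in siPHF19, with overlapping groups and 0.10 (adjusted p 0.447, SE 0.07) by the authors' deposited table. COL8A2, the partner chain, fell in MDA-MB-436 from 37.1, 41.9 and 22 in siNT to 18.5, 14.1 and 15.8 in siPHF19, a log2 fold change of -1.08 (adjusted p 0.0455, SE 0.42) by the authors' deposited table. The COL8A2 call was lost without any one library except siNT replicate 3 (-1.30 to -0.88, highest adjusted p 0.331), without the filter on low counts and with total reads as size factors. The log2 ratio of COL8A1 over COL8A2 was 0.43 ± 0.58 in siNT and 2.95 ± 0.15 in siPHF19 there (SD, n = 3), without overlap; it was taken after these values were seen and is given without a test.

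Type VI collagen makes beaded microfilaments around cells from the chains of COL6A1, COL6A2 and another such as COL6A3. None of its chains was called higher. COL6A2 gave 4203, 4099 and 3707 in siNT and 2776, 2969 and 2991 in siPHF19 in MDA-MB-436, and 1746, 1667 and 1857 in siNT and 1544, 1486 and 1383 in siPHF19 in BoM-1833. The groups did not overlap in either line. It fell in both, with log2 fold changes of -0.46 (adjusted p 3.55e-08, SE 0.08) in MDA-MB-436 and -0.26 (adjusted p 0.0109, SE 0.08) in BoM-1833 by the authors' deposited table. COL6A1 gave 4051, 3937 and 3832 in siNT and 3282, 3394 and 3514 in siPHF19 in MDA-MB-436, a change of -0.21 (adjusted p 0.0067, SE 0.06) by the authors' deposited table, and was called lower. In BoM-1833 its counts were 6958, 6754 and 7858 in siNT and 8063, 7750.3 and 7360.2 in siPHF19, with overlapping groups and 0.10 (adjusted p 0.41, SE 0.07) by the authors' deposited table. COL6A1 in MDA-MB-436 was not called without siNT replicate 2 or any siPHF19 library (-0.24 to -0.19, highest adjusted p 0.168), and COL6A2 in BoM-1833 not without siNT replicate 3, siPHF19 replicate 2 or siPHF19 replicate 3 (-0.29 to -0.21, 0.175).

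COL6A3 held at most 4.37 counts in MDA-MB-436 and gave 424, 515 and 712 in siNT and 404, 330.3 and 303 in siPHF19 in BoM-1833. The siNT libraries were widely spread, and siNT replicate 3 stood highest. COL6A3 fell, at -0.67 (adjusted p 0.000778, SE 0.16) by the authors' deposited table. Without siNT replicate 3 the change was -0.44 and the adjusted p 0.0543. COL7A1, the chain of the anchoring fibrils that fix epithelia to the matrix below, fell in MDA-MB-436 from 1186, 950.2 and 948 in siNT to 883, 855 and 792 in siPHF19, a log2 fold change of -0.29 (adjusted p 0.0431, SE 0.11) by the authors' deposited table. COL7A1 lost its call in edgeR, with total reads as size factors, without the filter on low counts and without any one library except siNT replicate 3 (-0.34 to -0.17, highest adjusted p 0.228). In BoM-1833 it was not called, at 248, 184 and 259 in siNT and 259, 169 and 216 in siPHF19.

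**Figure D4:**
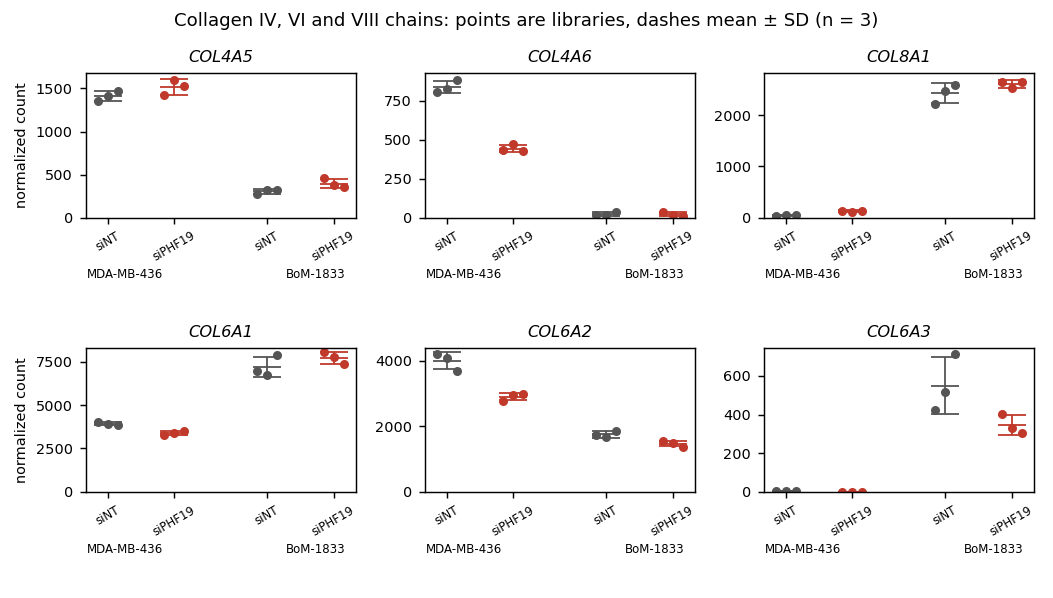
Normalized counts (y axis, from 0) of chains of collagens IV, VI and VIII in both lines; points are libraries, dashes and bars the mean ± SD of 3 libraries. COL4A6 and COL8A1 moved apart in MDA-MB-436, COL6A3 was found in BoM-1833 with siNT replicate 3 highest, and COL6A2 was lower in both lines.

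Collagens that decorate fibrils, the FACIT group, gave 1 call among 5 tested in MDA-MB-436 and none among 3 in BoM-1833, against 22.1% and 10.9% of all genes. COL14A1, which binds fibril surfaces and is known from tendon and skin, gave 64.4, 72.9 and 66 in siNT and 188, 289.9 and 153 in siPHF19 in MDA-MB-436. The siPHF19 libraries were spread but all were above the siNT range. COL14A1 rose 3.1-fold, by 1.63 (adjusted p 1.35e-09, SE 0.25) by the authors' deposited table, the highest log2 fold change among tested members in that line. In BoM-1833 no read was found in any of 6 libraries, which allows up to 0.141 to 0.218 reads per M per library (3 reads of the depth, counting error only). COL12A1, a large fibril-associated chain of stressed tissue, was the most abundant of the group. Its counts were 4465, 5360.3 and 6886 in siNT and 5989.6, 5566 and 5265 in siPHF19 in MDA-MB-436 and 1422, 1767 and 1767 in siNT and 1598, 1460.2 and 1552 in siPHF19 in BoM-1833. The groups overlapped in both lines, with 0.01 (adjusted p 0.97, SE 0.13) and -0.10 (adjusted p 0.584, SE 0.09) by the authors' deposited table. In BoM-1833 it was called lower only in the fit without siNT replicate 1 (-0.20, adjusted p 0.0291). COL9A2, COL9A3 and COL16A1 were not called where tested.

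COL13A1, a collagen anchored in the plasma membrane and known from cell adhesion sites and the neuromuscular junction, was called lower in both lines. The counts in MDA-MB-436 were 196, 171 and 175 in siNT and 40.3, 45.6 and 32.7 in siPHF19. In BoM-1833, where it was one of the leading chains, they were 4952, 4555 and 4824 in siNT and 3619.5, 3729.5 and 3676 in siPHF19. The groups stood apart in both. COL13A1 fell to 21.9% of control in MDA-MB-436, whereas 76.9% remained in BoM-1833. The log2 fold changes by the authors' deposited table were -2.18 (adjusted p 2.72e-21, SE 0.22) and -0.38 (adjusted p 1.87e-08, SE 0.06). The gene lies at chr10:69801867-69964275, plus strand (GRCh38).

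COL17A1, the hemidesmosome collagen of epithelial cells, fell in BoM-1833 from 239, 202 and 227 in siNT to 132, 132 and 93.7 in siPHF19, a log2 fold change of -0.90 (adjusted p 1.58e-05, SE 0.18) by the authors' deposited table. It held at most 4.89 counts in MDA-MB-436. COL18A1, a basement membrane collagen whose end fragment is endostatin, was lower in BoM-1833, with 1601, 1499 and 1587 in siNT and 1359.8, 1330.5 and 1283 in siPHF19 and -0.24 (adjusted p 0.0139, SE 0.07) by the authors' deposited table. That call was lost without siNT replicate 3 or any siPHF19 library (-0.27 to -0.22, highest adjusted p 0.159). In MDA-MB-436 COL18A1 stood at -0.02 (adjusted p 0.919, SE 0.08) by the authors' deposited table. Antisense genes and SLC19A1 overlap it, and their reads cannot be told apart from its own without strand. COL15A1, COL23A1 and COL25A1 were not called where tested.

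COL5A1 and COL13A1 were the collagen chains called in both lines with the smallest adjusted p in BoM-1833 and MDA-MB-436, one higher and one lower, and the stretches before their starts are shown to compare their CG content. Polycomb-like proteins such as PHF19 belong to a family known to recruit PRC2 to CG-rich DNA. The stretches are chr9:134641553-134641773 and chr10:69801656-69801866, both plus strand, from RefSeq (GRCh38.p14), and capitals mark each CG.
COL5A1: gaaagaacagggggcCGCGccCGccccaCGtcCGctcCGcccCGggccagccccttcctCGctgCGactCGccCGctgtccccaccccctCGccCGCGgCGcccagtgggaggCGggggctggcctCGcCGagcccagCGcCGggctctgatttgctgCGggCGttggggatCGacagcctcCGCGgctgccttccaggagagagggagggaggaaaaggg
COL13A1: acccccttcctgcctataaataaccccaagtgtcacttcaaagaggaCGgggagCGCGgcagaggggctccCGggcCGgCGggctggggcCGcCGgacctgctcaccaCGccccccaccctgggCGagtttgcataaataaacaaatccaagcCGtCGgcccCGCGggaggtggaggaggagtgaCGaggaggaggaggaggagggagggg
The printed stretches hold 25 and 15 CG, and the full 250 bases upstream of the RefSeq starts 29 and 16. RefSeq promoters were matched for 44 of the 59 members, whose median was 17 CG in 250 bases, against 11 over 27305 promoters. Members called higher in at least 1 line had a median of 25 (7 matched, range 8 to 37), members called lower 13 (9 matched, range 1 to 37) and members called in neither line 16.5 (28 matched, range 1 to 40). No promoter was matched for COL1A1, COL3A1, COL8A1, COL14A1, LOXL2 and MATN2, called higher, or for COL6A1, called lower. The medians leave these genes out. The 7 include C1QTNF6, whose rise was known, and the 28 include members tested in neither line, such as COL10A1. The 27305 promoters are not limited to tested genes. Medians over all genes called higher or lower were not taken, so the sets of members have no such background. The ranges of the 3 sets overlapped, and no test was made.

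Lysyl oxidases oxidize lysines of collagen so that fibrils cross-link. LOXL2 and LOXL4 were called higher in both lines. LOXL2 gave 3599.8, 4064 and 4129 in siNT and 4543, 4694 and 4512 in siPHF19 in MDA-MB-436. BoM-1833 gave 8825, 9664 and 9995 in siNT and 11572, 11599 and 11527 in siPHF19. The groups did not overlap, and the rise was 0.22 (adjusted p 0.0166, SE 0.07) and 0.28 (adjusted p 5.42e-05, SE 0.06) by the authors' deposited table. LOXL4 gave 373, 349.6 and 452 in siNT and 474, 484 and 495 in siPHF19 in MDA-MB-436, and 1088, 1192 and 1226 in siNT and 1591, 1685 and 1545 in siPHF19 in BoM-1833, with 0.31 (adjusted p 0.0493, SE 0.12) and 0.46 (adjusted p 2.43e-07, SE 0.08) by the authors' deposited table and no overlap. In MDA-MB-436, LOXL2 lost its call without siNT replicate 2 or any siPHF19 library (0.16 to 0.26, highest adjusted p 0.176). LOXL4 lost it there without any one library except siNT replicate 3 (0.23 to 0.42, 0.347) and without the filter on low counts.

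None of the other lysyl oxidases was called higher in the deposited tables. LOXL1, known from elastic fibres, was lower in BoM-1833, from 218, 253 and 239 in siNT to 146, 201 and 174 in siPHF19, a log2 fold change of -0.45 (adjusted p 0.0455, SE 0.16) by the authors' deposited table. The LOXL1 call was lost without siNT replicate 2, siNT replicate 3, siPHF19 replicate 1 or siPHF19 replicate 3 (-0.57 to -0.34, highest adjusted p 0.339), without the filter on low counts and with total reads as size factors. LOX, the founding enzyme, gave 235, 301 and 363 in siNT and 234, 272 and 224 in siPHF19 in MDA-MB-436 and 1825, 2266 and 2126 in siNT and 1816, 1774 and 1888 in siPHF19 in BoM-1833. The groups overlapped in both lines, and the changes of -0.30 (adjusted p 0.217, SE 0.17) and -0.18 (adjusted p 0.161, SE 0.08) by the authors' deposited table were not called. Without siNT replicate 1 of the line, LOX was called lower in both (-0.44, adjusted p 0.0332, and -0.27, adjusted p 0.000672). LOXL3 stood at 0.57 (adjusted p 0.0792, SE 0.25) and 0.43 (adjusted p 0.539, SE 0.35) by the authors' deposited table, and edgeR called it higher in MDA-MB-436. Genes on the opposite strand overlap LOXL1, LOXL2, LOXL3, LOXL4 and LOX. ENTPD4 overlaps LOXL2 on the same strand, where strand would not separate the reads.

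The hydroxylases other than P4HA3 were abundant, and they gave 1 call. Of the prolyl 4-hydroxylase subunits, 1 of 3 tested was called in MDA-MB-436 (background 22.1%) and 0 of 2 in BoM-1833 (background 10.9%). Of the lysyl hydroxylases, 0 of 3 were called in each line. P4HA1 encodes the main catalytic subunit of prolyl 4-hydroxylase, which stabilizes the helix. It was higher in MDA-MB-436, with 1596, 1473 and 1353 in siNT, 1634, 1967 and 1668 in siPHF19 and 0.25 (adjusted p 0.0492, SE 0.10) by the authors' deposited table. The P4HA1 call was lost in edgeR, without the filter on low counts and without any one library except siNT replicate 1 (0.16 to 0.31, highest adjusted p 0.399). In BoM-1833 it held 2187, 2201 and 2437 in siNT and 2315, 2182 and 2029 in siPHF19, with overlapping groups. P4HA2 was not called, at -0.08 (adjusted p 0.626, SE 0.11) and 0.20 (adjusted p 0.0869, SE 0.08) by the authors' deposited table. P4HA3 held under 20 counts in MDA-MB-436 and under 10 in BoM-1833.

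Lysyl hydroxylases prepare the sites of cross-links, and PLOD2 acts on the ends of the chains. None of the 3 was called in either line. PLOD2 gave 5145, 5738 and 5669 in siNT and 5988, 6169.8 and 6152 in siPHF19 in BoM-1833, where the groups did not overlap and the change of 0.15 (adjusted p 0.115, SE 0.06) by the authors' deposited table did not pass. In MDA-MB-436 its groups overlapped at 629 to 800.1 counts. PLOD1 stood at -0.02 (adjusted p 0.902, SE 0.08) and -0.10 (adjusted p 0.536, SE 0.08), and PLOD3 by 0.03 (adjusted p 0.822, SE 0.06) and 0.18 (adjusted p 0.17, SE 0.08), by the authors' deposited table.

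SERPINH1, which encodes HSP47, the collagen-specific chaperone of the endoplasmic reticulum, was called higher in both lines. MDA-MB-436 gave 3246, 3547 and 3611 in siNT and 4791, 4753 and 4912 in siPHF19, and BoM-1833 1505, 1571 and 1541 in siNT and 1860.4, 1803 and 1856 in siPHF19. No siPHF19 library fell into the siNT range. The rise was 0.47 (adjusted p 1.6e-10, SE 0.07) and 0.26 (adjusted p 0.00269, SE 0.07) by the authors' deposited table. In BoM-1833 the call was lost without siPHF19 replicate 3 (0.24 to 0.27 over the fits without 1 library, adjusted p 0.0541). SERPINH1 has 1 pseudogene in GENCODE, so its reads are uncertain to that extent.

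Matrilins are adaptor proteins that link collagen fibrils to other matrix components. MATN2 gave 168, 164 and 170.0 in siNT and 312, 306 and 345 in siPHF19 in MDA-MB-436 and 134, 181 and 157 in siNT and 327, 302 and 334 in siPHF19 in BoM-1833. MATN3, a matrilin of cartilage, was not called, at -0.70 (adjusted p 0.212, SE 0.40) and -0.23 (adjusted p 0.74, SE 0.29) by the authors' deposited table. C1QTNF6, a secreted protein with a short collagen-like domain, gave 223, 281 and 298 in siNT and 458, 428 and 515 in siPHF19 in MDA-MB-436 and 121, 149 and 166 in siNT and 276, 264 and 253 in siPHF19 in BoM-1833. For MATN2 and C1QTNF6 the groups stood apart in both lines. Genes on the opposite strand overlap both, RPL30 in the case of MATN2.

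The response was then compared between lines as the gap between the log2 fold changes, divided by the root of the summed squared errors. Of the 32 members tested in both lines, 4 differed at an adjusted p under 0.05 (12.5%), against 4.89% of all genes tested in both. MATN2 and C1QTNF6, chosen for a rise in both lines, are among the 32 and not among the 4. COL13A1 fell more in MDA-MB-436, with a difference (BoM-1833 minus MDA-MB-436) of 1.80 (95% interval 1.36 to 2.24, adjusted p 1.53e-12). COL8A1 rose in MDA-MB-436 and was not called in BoM-1833, with a difference of -1.39 (95% interval -1.88 to -0.90, adjusted p 4.26e-06). At COL6A1 the difference was 0.32 (95% interval 0.13 to 0.50, adjusted p 0.0201), lower in MDA-MB-436 and not called in BoM-1833. COL5A1 rose in both, and more in BoM-1833, by 0.31 (95% interval 0.12 to 0.50, adjusted p 0.0315). COL13A1 and COL8A1 differed in control level as well: COL13A1 averaged 181 ± 13.9 and 4777 ± 203 normalized counts in MDA-MB-436 and BoM-1833 (n = 3, SD), and COL8A1 44 ± 7.11 and 2431 ± 189, on scales normalized separately. The COL6A1 difference was lost in the edgeR interaction fit and without siNT replicate 2, siPHF19 replicate 1 or siPHF19 replicate 2 of BoM-1833, or siPHF19 replicate 1 or 2 of MDA-MB-436 (0.27 to 0.39 over the fits without 1 library, highest adjusted p 0.0722).

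The other 28 did not pass this test. Among them, COL4A6 had a difference of 0.86 (95% interval -0.13 to 1.84, adjusted p 0.405), with low counts in BoM-1833. For COL1A1 it was 0.01 (95% interval -0.45 to 0.48, adjusted p 0.989), for MATN2 0.09 (95% interval -0.31 to 0.49, adjusted p 0.881) and for C1QTNF6 0.06 (95% interval -0.35 to 0.48, adjusted p 0.929). MATN2 and C1QTNF6 were chosen for a rise in both lines, which favours a small difference, so their values are descriptions. LOXL2 gave 0.06 (95% interval -0.12 to 0.25, adjusted p 0.816) and SERPINH1 -0.22 (95% interval -0.40 to -0.03, adjusted p 0.221). Interaction fits to all 12 libraries with DESeq2 and edgeR also called COL27A1 and COL5A2. Of the 12 interaction fits without 1 library, 11 called COL27A1. The z test (adjusted p 0.0884) and the interaction fit with the replicate block did not call it, so its call depended on the test used. Of the same 12 fits, 3 called COL5A2, 3 COL4A6, 2 SERPINH1, and 1 each P4HA1 and P4HA2. A difference at these other genes depended on the libraries used.

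The log2 ratio of normalized counts was taken within each library for a chosen list of chains that are assembled together or encoded as neighbours, where both were tested in a line, 13 comparisons in all. The ratio does not depend on the size factor. COL4A5 over COL4A6 moved from 0.75 ± 0.02 to 1.78 ± 0.06 (SD, n = 3) in MDA-MB-436. BoM-1833, where the groups overlapped, gave a move from 3.80 ± 0.60 to 4.28 ± 0.54. COL5A1 over COL5A2 moved from 4.28 ± 0.14 to 4.49 ± 0.05 in MDA-MB-436. The same ratio in BoM-1833 moved from 5.20 ± 0.34 to 6.63 ± 0.16, at few reads of COL5A2 (113 over the siNT and 52 over the siPHF19 libraries). COL6A1 over COL6A2 moved from -0.02 ± 0.06 to 0.22 ± 0.03 in the MDA-MB-436 libraries and from 2.03 ± 0.04 to 2.39 ± 0.02 in those of BoM-1833. In each of these the siPHF19 libraries lay above the siNT libraries, except COL4A5 over COL4A6 in BoM-1833. The ratio of COL6A1 over COL6A2 was thus higher in both lines, although COL6A1 itself was lower in one and not called in the other.

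COL4A2 over COL4A1 moved from 1.53 ± 0.11 to 1.80 ± 0.08 in BoM-1833, without overlap, and from 1.29 ± 0.07 to 1.40 ± 0.05 in MDA-MB-436, with overlap. COL6A1 over COL6A3 moved from 3.74 ± 0.29 to 4.49 ± 0.15 in BoM-1833, again without overlap. COL3A1 over COL5A2, neighbours on chromosome 2, moved from -3.57 ± 0.33 to -2.86 ± 0.12 in MDA-MB-436. COL4A3 over COL4A4 moved from -2.03 ± 0.53 to -3.30 ± 0.35 there, at few reads of COL4A3. An exact 2-sided permutation test gave p = 0.1, the smallest that 3 against 3 libraries allow, for all 9 ratios without overlap. Adjusted over the 13 comparisons this was 0.144, so that the design could not reach 0.05 for any ratio.

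**Figure D5:**
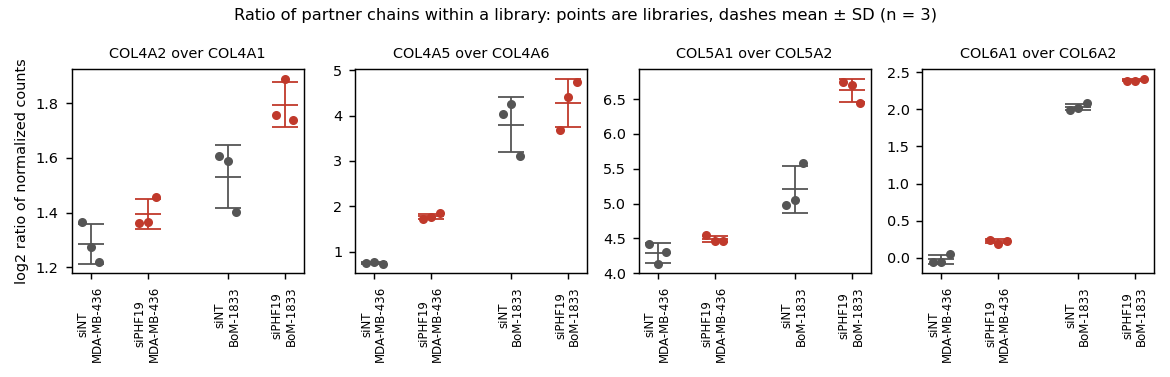
Log2 ratio of the normalized counts of partner chains (y axis, each panel with its own range) in both lines; points are libraries, dashes and bars the mean ± SD of 3 libraries. COL6A1 over COL6A2 and COL5A1 over COL5A2 were higher in siPHF19 in both lines, COL4A5 over COL4A6 in MDA-MB-436.

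By median, the members differed from all genes tested in features of gene and transcript. The members were chosen by gene family, so these medians describe the families and not the knockdown. Single members varied widely, for example 3 exons for C1QTNF6 and 118 for COL7A1. Matched to GENCODE, the 44 tested in MDA-MB-436 had a median gene span of 92.0 kb and 33.5 exons in the transcript used, against 34.0 kb and 9 exons over the genes tested. GC content of the transcript was 58.4% against 49.4%. In BoM-1833 the medians were 90.1 kb against 34.1 kb, and 58.0% against 48.9%. Members called lower had a GC content of 62.6% (MDA-MB-436) and 62.7% (BoM-1833) by median, members called higher 54.9% and 58.5%. Over all genes, those called lower had 50.7% and 46.9% and those called higher 48.0% and 52.6%, so that in BoM-1833 the order was the other way round.

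The 6 bases AAACTG were looked up on the sense strand of 3′ UTRs because earlier results of these data had shown them to be common in genes called lower. Of all genes tested with a 3′ UTR, 41.6% (MDA-MB-436) and 41.9% (BoM-1833) held them, against 48.8% and 60.3% of all genes called lower. Among members called lower they were found in 1 of 6 in MDA-MB-436 and in 0 of 6 in BoM-1833. Among members called higher the counts were 3 of 12 and 2 of 8. Of all tested members, called or not, 13 of 44 (29.5%) and 10 of 34 (29.4%) held them. Over all genes called higher the shares were 42.6% and 34.8%. A longer 3′ UTR has more room for a match. Its median length was 740 and 602.5 bases for members called lower, against 869 and 1430.5 over all genes called lower. Over tested members it was 1058.5 and 1027.5, against 1016 and 1020.5 over all genes tested. The part of length in these shares was not tested. The one lowered member with the letters was COL4A6, with 2 matches, shown as 30 bases of its 3′ UTR at chrX:108156041-108156070 and chrX:108155717-108155746, minus strand (GRCh38, GENCODE), with AAACTG in capitals.
COL4A6 match 1: gtgcaatgtggcAAACTGaagctgcacagt
COL4A6 match 2: taagtattatatAAACTGtgccaatacaga
A match is a description of the letters only.

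Other genes of the pathway, from lists chosen by function, were read from the same tables. Of 29 further collagen biosynthesis genes, 6 were higher and 2 lower among 26 tested in MDA-MB-436 (30.8%, background 22.1%, median log2 fold change 0.05), and 5 higher and 0 lower among 24 tested in BoM-1833 (20.8%, background 10.9%, median 0.07). SEC23A, a coat protein of the vesicles that carry procollagen out of the endoplasmic reticulum, rose by 0.45 (adjusted p 8.74e-06, SE 0.09) in MDA-MB-436 by the authors' deposited table. FKBP14, a prolyl isomerase of that compartment, rose by 0.47 (adjusted p 7.26e-05, SE 0.10) in the same table. In BoM-1833 CREB3L1, a membrane-bound transcription factor of secretory cells, rose by 0.70 (adjusted p 1.68e-18, SE 0.07) and BMP1, which trims the ends of procollagen, by 0.50 (adjusted p 8.05e-05, SE 0.11) by the authors' deposited table. BMP1 was called higher in MDA-MB-436 as well, by 0.39 (adjusted p 0.00328, SE 0.11) by the authors' deposited table. The 2 lower genes in MDA-MB-436 were LEPREL2, the older symbol of P3H3, and PPIB, a prolyl isomerase. LEPRE1, SEC23A and COLGALT1 were the other higher genes in BoM-1833, LEPRE1 and SEC23A in MDA-MB-436 too. These were named after their values were seen.

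Of 28 matrix proteins that bind or surround fibrils, 5 were higher and 4 lower among 18 tested in MDA-MB-436 (9 called, background 22.1%, median 0.02), and 2 higher and 0 lower among 11 tested in BoM-1833 (18.2%, background 10.9%, median -0.10). The lower genes were TGFBI, TNXB, NID1 and LTBP2, named after their values were seen. SPARC, a collagen-binding protein, rose from 303 ± 36.8 to 883 ± 21 (SD, n = 3) in MDA-MB-436, by 1.54 (adjusted p 6.72e-41, SE 0.11) by the authors' deposited table. EFEMP1, a fibulin, rose from 504 ± 18.2 to 1014 ± 81.1 in BoM-1833, by 1.01 (adjusted p 5.46e-24, SE 0.09), and by 0.80 (adjusted p 2.04e-05, SE 0.16) in MDA-MB-436, by the authors' deposited table. THBS1, an adhesive matrix protein, also rose in both lines, by 0.61 (adjusted p 2.38e-07, SE 0.11) and 0.40 (adjusted p 8.08e-08, SE 0.07) by the authors' deposited table. Of 10 collagen receptors, 1 was higher and 1 lower among 7 tested in MDA-MB-436 (28.6%, background 22.1%, median -0.16), and 0 higher and 1 lower among 7 in BoM-1833 (14.3%, background 10.9%, median -0.11). ITGA1, the alpha subunit of a collagen-binding integrin, rose by 0.76 (adjusted p 0.00373, SE 0.22) and its partner ITGB1 changed by -0.25 (adjusted p 0.000554, SE 0.06) in MDA-MB-436, both by the authors' deposited table. MRC2, an uptake receptor for collagen, changed by -0.26 (adjusted p 0.0387, SE 0.09) in BoM-1833 by the authors' deposited table.

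The members without an adjusted p were 15 (MDA-MB-436) and 25 (BoM-1833), with a mean of at most 3.01 and 14.8 normalized counts. Of these, 5 and 7 had no read in any library of the line. COL20A1, COL22A1 and COL6A6 had none in either line. COL9A3 held 5.72 to 10.1 counts in siNT and 12.9 to 28.3 in siPHF19 in BoM-1833 and was not tested there.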

How the data were processed

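Messenger RNA of 12 libraries was analysed from 2 tables of DESeq2 output, 1 per line. Per the submitters' processing notes, which give no order of steps, the authors used STAR, RSEM 1.3.1, DESeq2 1.46.0 and the build hg38; which annotation was used and whether counting was stranded is not given in the sources used here. RSEM yields estimated counts, and the signal the authors deposited per library is whole reads divided by 1 size factor, recovered to within 0.01 of a step for 100% of values. The deposited log2 fold changes (not shrunken), Wald statistics (a score), p-values and adjusted p-values are the authors' own. Columns belonging to no sample numbered 0, and 28 date-like gene names per table were kept and are not named.

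The members and all gene lists were chosen with earlier results of these data known. Calls use the authors' DESeq2 Wald test with Benjamini-Hochberg adjustment. The difference between lines was tested by z over 12290 genes, 2-sided, with Benjamini-Hochberg adjustment. Partner-chain ratios were tested by exact permutation. Depth was 13.7 to 24.0 M reads per library; no molecular identifiers are given, so precision from depth covers counting error only. Replicate pairs differed by 2.29 to 3.45 (siPHF19) and 5.92 to 24.1 (siNT) chi-square per degree of freedom, so none was a copy. Alternatives were DESeq2 1.42.0 and edgeR 4.0.16 in R 4.3.3 on the recovered reads, other scaling and filters, a fold threshold, a replicate block and each library left out; the scripts were tested on simulated data.

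Named genes were PHF19, members called in at least 1 line or with a mean of at least 1000 normalized counts in a line, partner chains, and the 2 called genes with the largest Wald statistic per other list and line. Levels per length and features use GENCODE transcripts, promoters use RefSeq.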

Additional observations from a re-analysis of the deposited data

Results flagged for a closer look

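The effect of siPHF19 differed between lines, by the test of the difference itself, at 4 members. The difference of log2 fold changes (BoM-1833 minus MDA-MB-436) was 1.80 for COL13A1, which fell in both lines and more in MDA-MB-436. For COL8A1 it was -1.39, with a rise in MDA-MB-436. COL6A1 gave 0.32 and COL5A1 0.31. COL13A1 was at 181 ± 13.9 normalized counts (n = 3, SD) in siNT libraries of MDA-MB-436 and at 4777 ± 203 in those of BoM-1833, and COL8A1 at 44.0 ± 7.11 and 2431 ± 189; the lines were normalized separately. The part of these control levels in the differences was not tested.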

How the results depend on the processing

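Members called numbered 18 (MDA-MB-436) and 14 (BoM-1833). With a minimum absolute log2 fold change of 0.5 it was 10 and 6. Leaving out 1 library at a time gave 9 to 15 in each line. For these and the other settings of this section the share of all genes called was not taken. A loss of calls particular to members therefore cannot be told from a loss over all genes. Deviations of same-numbered siNT and siPHF19 libraries correlated at -0.23, 0.04 and -0.27 (MDA-MB-436) and -0.31, -0.12 and -0.20 (BoM-1833) across genes. Among siNT libraries, only MDA-MB-436 replicate 2 correlated best with its own number. The highest same-number value was thus 0.04, so these values gave no sign of pairing. Deviations within a group of 3 sum to 0, so the correlations are not independent of each other. With so few libraries they do not settle whether libraries were prepared in pairs. With the replicate number as a block, 9 members were called in each line and 2 differed between lines, COL13A1 and COL8A1, against 4 without it; leaving out 1 library gave 4 to 8. Of the 32 single calls, 17 were kept under all alternatives run other than the fold threshold, and 15 were lost under at least 1 of these. The cause was not tested. No called member changed direction. Changes of sign occurred at members that were not called: over fits without 1 library the log2 fold change in MDA-MB-436 ran from -0.126 to 0.189 for COL12A1, -0.0855 to 0.0205 for COL18A1, -0.0074 to 0.0465 for COL4A1, -0.185 to 0.111 for LOXL1, -0.0882 to 0.0248 for PLOD1, -0.119 to 0.0703 for PLOD2 and -0.0079 to 0.0539 for PLOD3, and in BoM-1833 from -0.26 to 0.0481 for COL7A1. With total reads as size factors COL18A1 stood at 0.0051 and PLOD1 at 0.0022 in MDA-MB-436. Left without an adjusted p were 15 and 25 members, of which 5 and 7 had no read; what depth would add for the others was not tested.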
